A study of Mus musculus with 7 samples.

Results

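The genes of cholesterol and fatty acid synthesis were measured in HM-1 cells whose Snail was targeted by a short hairpin RNA. A set of 33 genes of these pathways was named, and a gene was measured where the array held a transcript cluster with that gene as its only symbol, the cluster with the highest mean over 7 arrays being used where there were several. By this rule 29 of the 33 genes were measured, of 30137 genes with 1 symbol and 65770 transcript clusters in all. The clusters of Srebf1 and Tm7sf2 also carried another gene's symbol, so these genes were not measured. Those of Msmo1 and Scd2 carried a further symbol that the RefSeq table lists as a synonym of the same gene, and their values are given apart from the 29.

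OV2944-HM-1, or HM-1, is an ovarian cancer line of the mouse, grown here in MEMα with fetal bovine serum. HM-1-shSnail cells carried one of the lentiviral GIPZ hairpins sh1 and sh2, both directed at Snai1, the gene of the transcriptional repressor Snail, and HM-1-control cells carried a non-silencing hairpin from the same maker. All 7 arrays therefore came from hairpin-carrying cells of the same line. The methods name lentiviral particles for sh1 and sh2, but for the control only the transfection of its hairpin. There were 2 arrays of sh1, 2 of sh2 and 3 of control, which the labels call biological replicates, though neither they nor the methods say that any hairpin was introduced more than once. Each p-value thus covers only the variation among these 7 samples, which may be technical, and precision is limited by there being only 7 arrays. The methods give the target sequences of the hairpins, which define the groups. They were not aligned here to Snai1, which lies on chromosome 2:
sh1: agtttattgatattcaata
sh2: tggttaatttatatactaa

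Animal cells build cholesterol from acetyl-CoA through mevalonate, isoprenoid diphosphates, squalene and lanosterol, and build fatty acids from the same acetyl-CoA through malonyl-CoA. Many genes of both routes are driven by the SREBP transcription factors, which Scap carries from the endoplasmic reticulum to the Golgi when sterols are scarce and which the Insig proteins hold back when sterols are plentiful. SREBPs bind sterol regulatory elements, usually together with NF-Y, which binds CCAAT, and Sp1, which binds GC boxes. Snail is a zinc finger protein that binds E-boxes with the letters CAGGTG and is known for repressing epithelial genes.

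The 150 bases before the RefSeq start are shown 5′ to 3′ on the strand of the gene for 6 genes that lay higher in HM-1-shSnail cells and for Insig2, which did not. Sequence and GRCm38.p6 coordinates are those of RefSeq, and for Insig2, which has several starts, the start with the most CCAAT matches is shown. CCAAT on either strand and the sterol regulatory element TCACNCCAC are in capitals:
Hmgcs1, chr13:119690201-119690350, plus strand: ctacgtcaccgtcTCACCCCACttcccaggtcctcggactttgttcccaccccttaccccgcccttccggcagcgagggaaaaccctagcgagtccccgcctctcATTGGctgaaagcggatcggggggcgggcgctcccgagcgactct
Mvd, chr8:122443423-122443572, minus strand: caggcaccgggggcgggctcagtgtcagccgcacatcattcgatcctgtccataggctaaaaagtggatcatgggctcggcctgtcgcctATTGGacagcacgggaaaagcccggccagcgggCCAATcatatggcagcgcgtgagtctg
Idi1, chr13:8885456-8885605, plus strand: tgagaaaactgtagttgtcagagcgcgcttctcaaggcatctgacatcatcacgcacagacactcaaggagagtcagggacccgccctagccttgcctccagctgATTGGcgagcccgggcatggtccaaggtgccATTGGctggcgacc
Lss, chr10:76531455-76531604, plus strand: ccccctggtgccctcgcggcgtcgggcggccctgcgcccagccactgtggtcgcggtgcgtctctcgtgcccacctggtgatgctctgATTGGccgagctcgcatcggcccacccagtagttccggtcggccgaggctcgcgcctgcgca
Cyp51, chr5:4104698-4104847, minus strand: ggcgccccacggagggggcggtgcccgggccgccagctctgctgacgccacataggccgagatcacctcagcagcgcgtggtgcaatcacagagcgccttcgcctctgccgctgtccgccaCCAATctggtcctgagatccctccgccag
Fasn, chr11:120824548-120824697, minus strand: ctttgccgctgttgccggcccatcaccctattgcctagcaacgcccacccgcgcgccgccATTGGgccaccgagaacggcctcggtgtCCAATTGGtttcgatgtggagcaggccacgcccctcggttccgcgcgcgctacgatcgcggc
Insig2, chr1:121332590-121332739, minus strand: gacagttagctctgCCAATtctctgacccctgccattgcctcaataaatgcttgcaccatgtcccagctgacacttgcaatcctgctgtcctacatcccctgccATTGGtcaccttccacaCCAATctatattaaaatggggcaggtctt

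Of the 33 genes, 27 had a promoter in the RefSeq table, and windows of 250 bases before to 50 bases after each start were searched on both strands. CCAAT was found in 23 of the 27 genes (85.2%), and in 41.1% of all 27025 genes with a promoter. GGGCGG, the letters of a GC box, was likewise found in 23 (85.2%), and in 38.2% of all genes. The sterol regulatory element TCACNCCAC was found in 1 gene, Hmgcs1, where it began at base -137 from the start (3.70% of the genes, and 1.44% of all genes). With a looser ending, TCACNCNAC, which includes every TCACNCCAC, Nsdhl was added (7.41%, and 3.15% of all genes). CAGGTG was found in 7 of the 27 genes (25.9%), and in 22.6% of all genes, and the E-box CACGTG was found in 6 (22.2%), and in 8.09% of all genes. Among the measured genes with a promoter, CCAAT stood in 14 of the 16 whose HM-1-shSnail arrays all lay above the control arrays and in 6 of the other 8. These matches are descriptions of letters, not of bound sites.

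**Figure D1:**
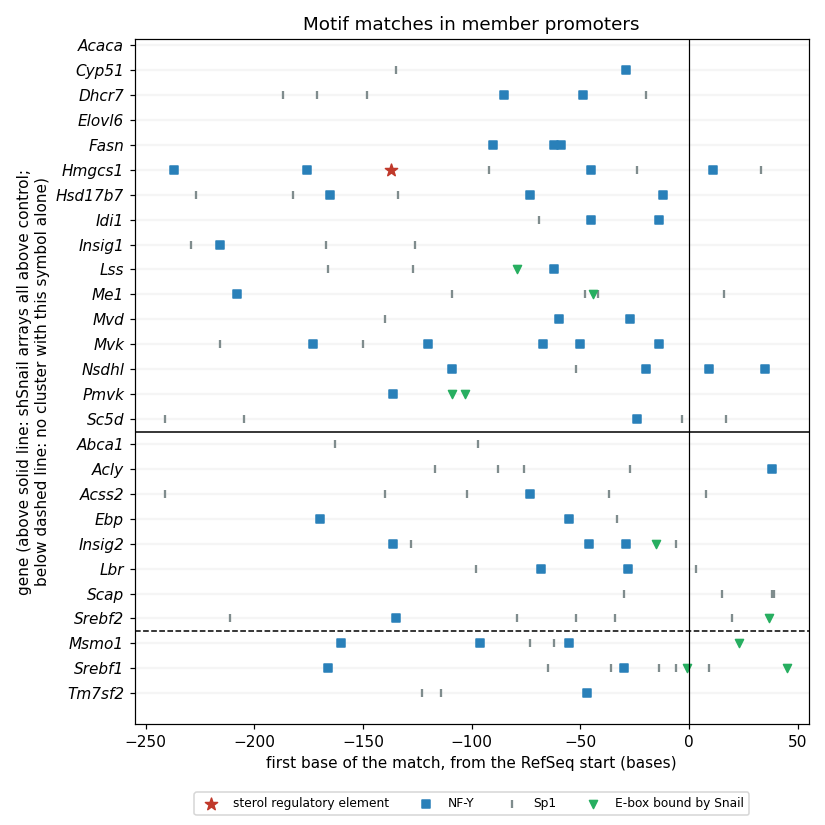
Matches of 4 motifs in the promoters of 27 genes, by the distance in bases of the first base of the match from the RefSeq start. Genes above the solid line had all 4 shSnail arrays above all 3 control arrays, genes between the lines did not, and the 3 genes below the dashed line had no cluster with their symbol alone. CCAAT (NF-Y) and GGGCGG (Sp1) are spread over both measured groups, and Hmgcs1 holds the single sterol regulatory element, at -137.

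The values were the authors' log2 signals, so a difference of 1 is a doubling of signal. Snai1 itself did not check the labels, with log2 signals of 6.80 and 6.55 on the sh1 arrays and 6.69 and 6.77 on the sh2 arrays, against 6.61, 6.69 and 6.70 on the control arrays (difference 0.03, adjusted p = 0.85 from limma), and every direction below rests on the arrays as labelled. The keratins Krt8, Krt18 and Krt19 stood high on all arrays, while Epcam, Cdh1, Wt1, Pax8, Muc16 and Msln were not above the 95th percentile of the negative controls, which was 7.97. Snai1 likewise read below 7.97 on all 7 arrays. At such low signal these arrays cannot tell whether the hairpins lowered Snai1 RNA. The paper describes HM-1-shSnail cells as depleted of Snail and shows a blot of the nuclear protein from HM-1 cells. The median of the negative controls was 4.92 to 5.20 on the shSnail arrays, against 4.83 to 4.86 on the control arrays. With that median as a covariate, 24 of the 27 measured genes whose values varied had a difference above 0, with a median of 0.46, and 0 passed the test. The share of all clusters that passed was not taken in that fit. The medians of the negative controls did not overlap between the groups, so this fit cannot tell background signal apart from the hairpins. Among markers of other cell types, 6 leukocyte markers averaged 4.62 to 4.67 on the shSnail arrays, against 4.81 to 4.88 on the control arrays, and 4 endothelial markers averaged 4.69 to 4.85, against 4.48 to 4.57. Among the leukocyte markers Cd68 differed by -1.14, and Ptprc, Cd3e, Itgam, Adgre1 and Csf1r by -0.02 to 0.00. Of the endothelial markers Cdh5 differed by 0.98 (adjusted p = 0.12), with 6.34 and 6.36 in sh1 and 5.92 and 5.79 in sh2, against 5.12, 5.29 and 4.96 in control, under 7.97 but wholly above control, while Pecam1 differed by 0.02 and Kdr and Tek by 0.00. Of these and the fibroblast, adipocyte and hepatocyte markers only Cd68, a macrophage marker also present in other cells, lay above 7.97 in any group, with a mean of 7.72 in shSnail and 8.86 in control (adjusted p = 0.046), and Ptprc and Col1a1 averaged 4.22 and 4.71 in both groups. Their part in the results was not tested.

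In HM-1-shSnail cells most of the genes of both pathways had a higher signal than in HM-1-control cells, by a log2 difference of 0.38 in the median and up to 0.85. The genes with every shSnail array above control were the 6 of the mevalonate steps, 8 of 10 from squalene on, the feedback gene Insig1, and Acaca, Fasn, Me1, Elovl6 and Scd1 of fatty acid synthesis. Ebp, Lbr, Srebf2, Scap, Insig2, Acly, Acss2, Stard4 and Abca1 differed by -0.02 to 0.08. Each of these genes held only 1 to 5 distinct values over the 7 arrays, against 6 or 7 for the genes wholly above control. Why values were equal is not given in the sources used here, so their small differences are uncertain. All 4 shSnail arrays lay above all 3 control arrays for 20 of the 29 genes (5.08% of all clusters), and all below for 0 (4.01% of all clusters). At an unadjusted p under 0.05, 20 genes were higher (5.45% of all clusters) and 0 lower (4.65%). After Benjamini-Hochberg adjustment over all 65770 clusters in limma, 4 genes passed at 0.05, all higher (Sqle, Acaca, Me1 and Elovl6, with 0.210% of all clusters called higher), and 0 were lower (0.432% of all clusters). Bright clusters separated more often, so the count was also taken among the 10674 clusters with both group means above 7.97, where 15 of 20 of these genes lay wholly above control, against 15.6% of such clusters. The median difference over all clusters was 0.00.

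**Figure D2:**
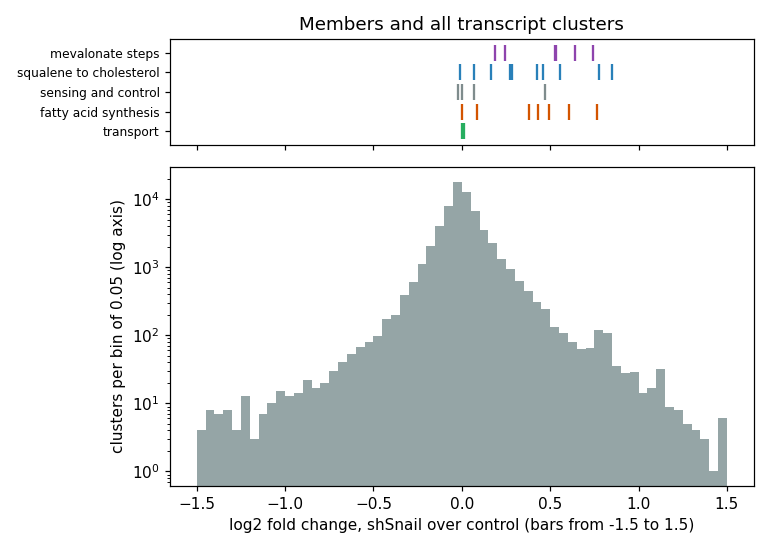
Log2 fold change of shSnail (n = 4 arrays) over control (n = 3) for the 29 measured genes by role (ticks, top) and for all clusters (bars of 0.05 on a log axis, bottom). The bulk of the clusters lies near 0, while the ticks of the mevalonate, squalene and fatty acid roles reach 0.74, 0.85 and 0.77.

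The 4 calls were close to the threshold. Leaving out 1 array at a time, 0 genes passed without control replicate 2, control replicate 3, sh1 replicate 1 or sh1 replicate 2, 1 passed without control replicate 1 (Me1) or without sh2 replicate 1 (Acaca), and 7 passed without sh2 replicate 2. The median difference of the 27 genes whose values varied stayed between 0.38 and 0.47 in these fits, against 0.43 with all arrays. The share of all clusters that passed was not taken in these fits, so the counts cannot be set beside it.

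Hmgcs1, which makes HMG-CoA in the cytosol, gave log2 signals of 12.70 and 12.83 with sh1 and 12.94 and 12.48 with sh2, against 12.13, 12.08 and 12.08 in control. Every shSnail array lay above every control array, sh2 replicate 2 being the nearest. The means were 12.74 ± 0.20 in shSnail and 12.10 ± 0.03 in control (SD, n = 4 and 3), a log2 difference of 0.64 (SE 0.11), or 1.56-fold, with an adjusted p of 0.11 from limma. All 6 genes of the mevalonate steps had shSnail arrays wholly above control, with a median difference of 0.53, and 0 of the 6 passed the adjusted test.

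Fdps, which makes farnesyl diphosphate, differed most among these steps, with 10.36 and 10.48 in sh1 and 10.49 and 9.99 in sh2, against 9.65, 9.64 and 9.49 in control. The difference was 0.74 (SE 0.14, adjusted p = 0.12). Idi1, which interconverts the isoprenoid building blocks, gave 11.90 and 11.98 in sh1 and 11.93 and 11.57 in sh2, against 11.36, 11.28 and 11.29 in control (difference 0.53, SE 0.11, adjusted p = 0.15). In both genes sh2 replicate 2 stood apart from the other shSnail arrays, between them and the controls. Mvd, which makes isopentenyl diphosphate, gave 7.76 and 7.97 in sh1 and 7.76 and 7.66 in sh2, against 7.42, 7.15 and 7.22 in control. The kinases Mvk and Pmvk, which phosphorylate mevalonate and its product, differed by 0.19 and 0.24. Mvk turned sign for each hairpin with the median of the negative controls as a covariate, to -0.297 in sh2 and -0.00695 in sh1, against 0.21 and 0.16 without it. The means of Mvk, Pmvk and Mvd lay under 7.97 in both groups, so the sizes of their differences are uncertain.

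In the steps from squalene to cholesterol, 8 of 10 measured genes had shSnail arrays wholly above control, the median difference was 0.35, and 1 gene passed. Sqle, the squalene epoxidase, rose by 0.46 (SE 0.06, 1.37-fold, adjusted p = 0.048 from limma). Its log2 signals were 12.30 and 12.36 in sh1 and 12.28 and 12.13 in sh2, against 11.80, 11.78 and 11.85 in control. The 3 control arrays lay within 0.07 of each other. Without 1 array, the adjusted p of Sqle ran from 0.023 to 0.19 and passed only without sh2 replicate 2.

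Lss, which closes squalene epoxide to lanosterol, differed by 0.85 (SE 0.12, 1.80-fold), with an adjusted p of 0.056. Its signals were 8.68 and 8.64 in sh1 and 8.71 and 8.28 in sh2, against 7.80, 7.73 and 7.65 in control. The control mean lay under 7.97, which leaves the size uncertain. Cyp51, which demethylates lanosterol, gave 10.86 and 11.07 in sh1 and 11.06 and 10.65 in sh2, against 10.12, 10.20 and 10.08 in control (difference 0.77, SE 0.11, adjusted p = 0.071). As with Fdps, sh2 replicate 2 was the lowest of the shSnail arrays in both genes and still above every control.

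The enzymes that strip methyl groups from the sterol nucleus followed the same order. Nsdhl gave 8.99 and 9.07 in sh1 and 9.12 and 8.70 in sh2, against 8.49, 8.38 and 8.36 in control (difference 0.56, SE 0.11, adjusted p = 0.14). Hsd17b7 gave 9.27 and 9.32 in sh1 and 9.01 and 8.97 in sh2, against 8.73, 8.68 and 8.73 in control, so that its hairpins separated from each other as well as from control. Msmo1, measured on the cluster with a second symbol, gave 7.65 and 7.95 in sh1 and 7.83 and 7.58 in sh2, against 7.21, 7.23 and 7.16 in control. Its arrays did not overlap either (difference 0.55, SE 0.09, adjusted p = 0.10, with all means under 7.97).

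The other genes of these steps differed less. Fdft1, the squalene synthase, differed by 0.28 (adjusted p = 0.48), and its lowest shSnail array, 9.32, lay only just above its highest control array, 9.31. Sc5d, a sterol desaturase, differed by 0.27 (adjusted p = 0.43), and Dhcr7, which makes cholesterol in the last reduction, by 0.16 (adjusted p = 0.44) at a signal under 7.97. Ebp, the sterol isomerase, and Lbr, a sterol reductase of the nuclear membrane, were the exceptions. Their groups overlapped, with differences of -0.01 and 0.07, and Ebp lay under 7.97.

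**Figure D3:**
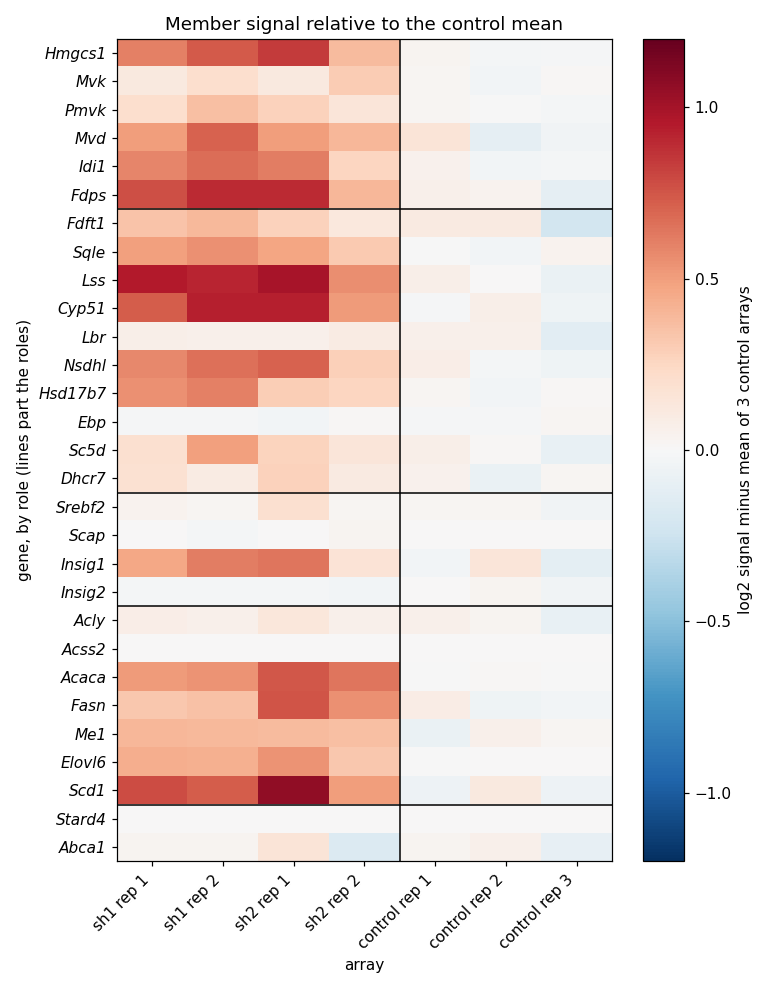
Log2 signal of 29 genes on each array, less the mean of the 3 control arrays (colour, red above and blue below), with the arrays of sh1, sh2 and control from left to right and lines between the roles. Red fills the sh1 and sh2 columns for the synthesis genes and Insig1, is paler on sh2 replicate 2 for most of the mevalonate and squalene genes, and is nearly absent for Ebp, Lbr, Srebf2, Scap, Insig2, Acly, Acss2, Stard4 and Abca1.

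Among the sensing and control genes, 1 of 4 measured had shSnail arrays wholly above control and 0 passed, with a median difference of 0.04. Insig1, itself a target of SREBPs, gave 10.23 and 10.38 in sh1 and 10.40 and 9.93 in sh2, against 9.74, 9.91 and 9.65 in control. Its groups were parted only by 0.01, between sh2 replicate 2 and control replicate 2, and the difference of 0.47 (SE 0.14) had an adjusted p of 0.34. Insig2, its relative, gave 10.05 on both sh1 arrays and 10.05 and 10.04 in sh2, against 10.08, 10.11 and 10.04 in control (difference -0.02, adjusted p = 0.65).

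Srebf2, which encodes the SREBP that mainly drives cholesterol genes, gave 11.40 and 11.38 in sh1 and 11.55 and 11.38 in sh2, against 11.38, 11.38 and 11.31 in control. Only sh2 replicate 1 stood out, and the difference was 0.07 (SE 0.05, adjusted p = 0.64). Scap lay between 10.45 and 10.51 on the shSnail arrays and at 10.48 on all 3 control arrays. These arrays measure RNA only, and the processing that activates SREBP proteins was not measured.

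In fatty acid synthesis, 5 of 7 measured genes had shSnail arrays wholly above control and 3 passed the test, with a median difference of 0.43. Acaca, the acetyl-CoA carboxylase that makes malonyl-CoA, gave 10.32 and 10.35 in sh1 and 10.55 and 10.45 in sh2, against 9.80, 9.82 and 9.80 in control. It rose by 0.61 (SE 0.06, 1.52-fold, adjusted p = 0.022 from limma). Its 4 shSnail arrays lay at least 0.50 above the highest control array.

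Me1, the malic enzyme that supplies NADPH, was even across the shSnail arrays, with 12.81 and 12.80 in sh1 and 12.78 and 12.76 in sh2, against 12.32, 12.46 and 12.43 in control. It rose by 0.38 (SE 0.04, 1.30-fold, adjusted p = 0.020 from limma). Elovl6, which lengthens palmitate, rose by 0.43 (SE 0.05, 1.35-fold, adjusted p = 0.037 from limma), with 12.75 and 12.74 in sh1 and 12.85 and 12.63 in sh2, against 12.31, 12.32 and 12.32 in control. Without 1 array the adjusted p ran from 0.026 to 0.12 for Acaca, from 0.032 to 0.086 for Me1 and from 0.036 to 0.16 for Elovl6, and Elovl6 passed only without sh2 replicate 2.

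Fasn, the fatty acid synthase, gave 12.54 and 12.57 in sh1 and 12.97 and 12.77 in sh2, against 12.31, 12.16 and 12.19 in control. Its sh2 arrays were the higher ones, and the difference of 0.49 (SE 0.12) did not pass (adjusted p = 0.22). Scd1, which makes monounsaturated fatty acids, gave 15.85 and 15.79 in sh1 and 16.12 and 15.56 in sh2, against 15.00, 15.18 and 15.00 in control (difference 0.77, SE 0.14, adjusted p = 0.11). A second cluster of Scd1 gave 10.88 and 11.02 in sh1 and 11.43 and 10.74 in sh2, against 9.79, 9.29 and 9.69 in control, a difference of 1.43 (SE 0.20, adjusted p = 0.063). Both clusters put every shSnail array above every control array, but with different sizes.

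Scd2, the near relative of Scd1, was read on the cluster that lists a microRNA symbol too. It gave 16.43 and 16.38 in sh1 and 16.73 and 16.08 in sh2, against 15.25, 15.40 and 15.20 in control, a difference of 1.12 (SE 0.15, 2.18-fold, adjusted p = 0.058). The Scd genes are similar in sequence, and how the probes part them is not given in the sources used here, so their values may share signal. Acly, which cleaves citrate to acetyl-CoA, overlapped between groups (13.24 to 13.32 in shSnail and 13.10 to 13.24 in control, adjusted p = 0.57). Acss2, which makes acetyl-CoA from acetate, had the same value of 5.74 on all 7 arrays, under 7.97.

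Of the transport genes, Abca1, the cholesterol exporter, overlapped between groups, with 6.77 to 7.10 in shSnail and 6.84 to 7.003 in control (difference 0.01, adjusted p = 0.99). Stard4, a sterol carrier, had the same value of 4.41 on all 7 arrays. Both lay under 7.97.

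**Figure D4:**
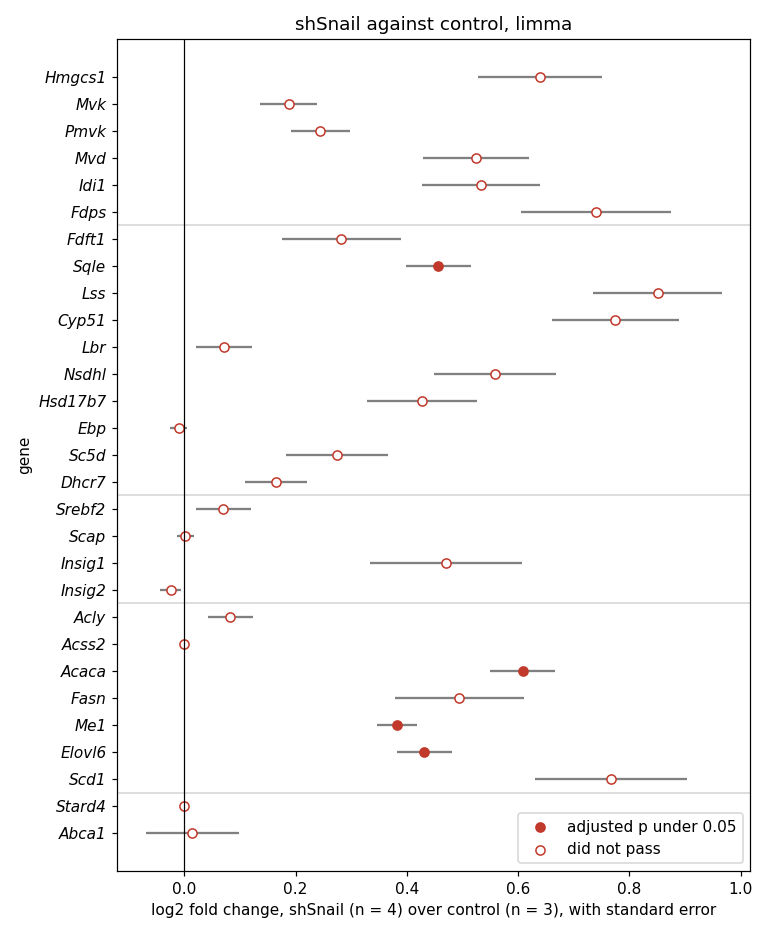
Log2 fold change of shSnail (n = 4 arrays) over control (n = 3) for each of the 29 genes, with the standard error from limma as bars. Filled points, Sqle, Acaca, Me1 and Elovl6, passed an adjusted p of 0.05, while Lss, Cyp51, Scd1, Fdps and Hmgcs1 lie further right with wider bars.

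Each hairpin was compared with the same 3 control arrays, so the comparisons are not independent of each other. For sh1, 2 genes rose (Hsd17b7 and Acaca, with 0.0517% of all clusters called higher), and for sh2, 4 rose (Hsd17b7, Acaca, Fasn and Me1, with 0.809% of all clusters). Leaving out 1 control array, the count for sh1 was 0 in each fit. That for sh2 was 0 without control replicate 1 or control replicate 2, and 1 (Acaca) without control replicate 3. The share of all clusters that passed was not taken in these fits. The median difference of the 29 genes was 0.36 for sh1 and 0.28 for sh2. On the single arrays, the median shift from the control mean was 0.34 and 0.39 for sh1 and 0.29 and 0.26 for sh2. The mevalonate genes shifted by 0.54 and 0.69 in sh1 and by 0.56 and 0.34 in sh2, and the fatty acid genes by 0.40 and 0.39 in sh1 and by 0.54 and 0.36 in sh2.

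The hairpins were then set against each other, and 0 genes passed between sh2 and sh1, as did 0 of all clusters (0%). At an unadjusted p under 0.05, 3 genes differed, Hsd17b7, Acaca and Fasn (6.01% of all clusters, in either direction). Hsd17b7 was lower in sh2 than in sh1, by a log2 difference of -0.30 (SE 0.03, unadjusted p = 0.0002, adjusted p = 0.27). It rose by 0.28 with sh2 (adjusted p = 0.038) and by 0.58 with sh1 (adjusted p = 0.030). Acaca was higher in sh2 by 0.17 (SE 0.04, unadjusted p = 0.0070, adjusted p = 0.44), and rose by 0.69 with sh2 (adjusted p = 0.020) and by 0.52 with sh1 (adjusted p = 0.038). Fasn was higher in sh2 by 0.31 (SE 0.08, unadjusted p = 0.016, adjusted p = 0.58), differing from control by 0.65 with sh2 (adjusted p = 0.044) and by 0.34 with sh1 (adjusted p = 0.32).

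**Figure D5:**
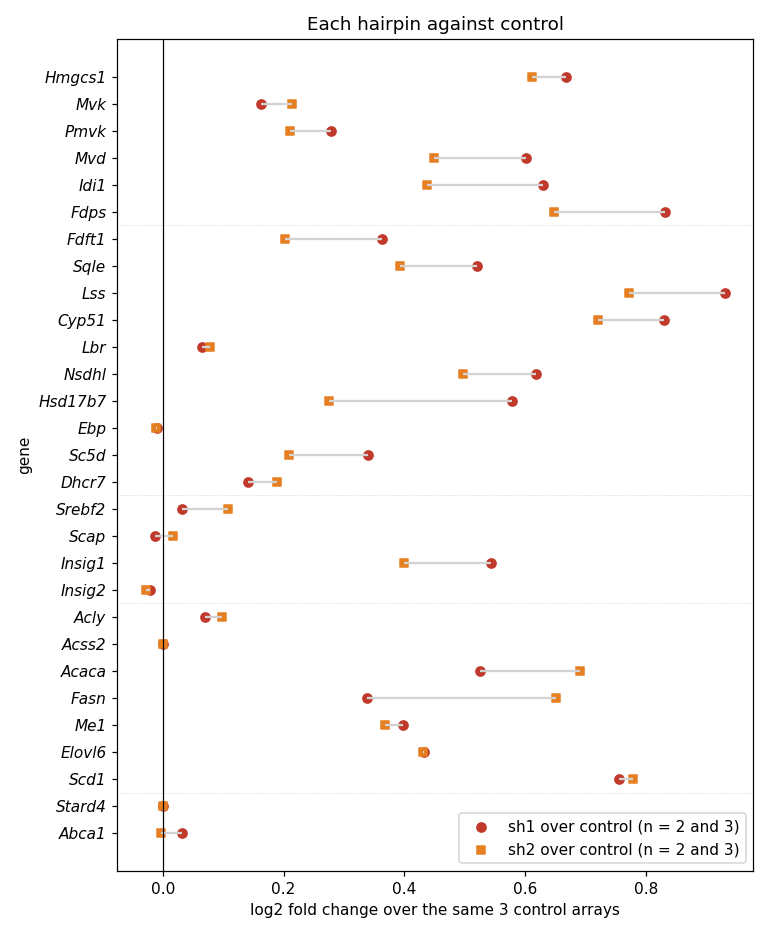
Log2 fold change over the same 3 control arrays for sh1 (circles, n = 2 arrays) and sh2 (squares, n = 2) in each of the 29 genes. The widest gaps are those of Fasn, 0.65 for sh2 and 0.34 for sh1, and Hsd17b7, 0.28 for sh2 and 0.58 for sh1.

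The sh2 arrays lay further from each other than the sh1 arrays did in 23 of 29 genes, with median gaps of 0.16 for sh2 and 0.05 for sh1. Replicate 2 of sh2 was the lowest of the 4 shSnail arrays in 18 of 29 genes, and in 16 of the 20 whose groups did not overlap, while replicate 1 of sh2 was the highest in 13. These counts were not taken over all clusters, so they may describe the arrays as a whole and not these genes. Replicate 2 of sh2 also had the highest median of the negative controls, 5.20. The part of the background signal in its lower values was not tested. Without it the genes that passed in shSnail were Sqle, Elovl6, Lss, Cyp51, Fdps, Idi1 and Nsdhl. For sh2 against control, the median difference of the 27 genes whose values varied was 0.38 without replicate 2 and 0.26 without replicate 1. It was 0.37 with both. In each of the first 2 fits sh2 rested on 1 array that is assumed to vary like the other groups.

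Other genes of the same pathways were taken from lists. Of 40 further listed genes of sterol synthesis, uptake, transport and sensing, 29 were measured, 0 rose (0.210% of all clusters) and 1 fell (Rnf145, with 0.432% of all clusters), with a median difference of -0.01. At an unadjusted p under 0.05, 4 were higher (5.45% of all clusters) and 7 lower (4.65%). Rnf145, a ubiquitin ligase of the endoplasmic reticulum linked to sterol sensing, fell by 0.44 (SE 0.05, adjusted p = 0.030), with 9.96 and 9.93 in sh1 and 10.00 and 10.01 in sh2, against 10.46, 10.47 and 10.31 in control. Among the others, named after their values were seen, Npc1 and Npc2, which release cholesterol from lysosomes, had differences of -0.40 and -0.57 (adjusted p = 0.092 and 0.15), and Abcg1, a sterol exporter, -0.48 (adjusted p = 0.17). Also named after their values were seen, Tmem97, which regulates Npc1, had a difference of 0.51 (adjusted p = 0.33), Lipa, the lysosomal lipase, 0.31 (adjusted p = 0.49), and Erlin1 0.18 (adjusted p = 0.32), with every shSnail array above control for Tmem97 and Erlin1 but not for Lipa.

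Of 47 further listed genes of fatty acid synthesis and use, 44 were measured, 2 rose (0.210% of all clusters), 0 fell (0.432%), and the median difference was 0.03. At an unadjusted p under 0.05, 15 were higher (5.45% of all clusters) and 3 lower (4.65%), and 15 lay wholly above control (5.08%). Fads3, a member of the fatty acid desaturase family, rose by 0.34 (SE 0.02, adjusted p = 0.0073), with 14.21 and 14.24 in sh1 and 14.22 and 14.28 in sh2, against 13.93, 13.87 and 13.90 in control. In the comparison of sh2 with control, Acsl6, an acyl-CoA synthetase, fell by 0.61 (SE 0.06, adjusted p = 0.038), with 9.41 and 9.55 in sh2, against 10.07, 10.16 and 10.03 in control, and its difference for shSnail was -0.49 (adjusted p = 0.11). Scd3 rose by 0.38 (adjusted p = 0.047), but it lay under 7.97 and is similar in sequence to Scd1, so its value is uncertain. Fads2, the rate-limiting desaturase of polyunsaturated fatty acids, was named after its values were seen. It gave 11.14 and 11.004 in sh1 and 11.70 and 10.65 in sh2, against 9.64, 9.62 and 9.63 in control, a difference of 1.49 (SE 0.24) that did not pass (adjusted p = 0.094).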

How the data were processed

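Total RNA of HM-1 cells was hybridised to 7 Affymetrix GeneChip Mouse Transcriptome Array 1.0 arrays. The deposited values are the authors' log2 signals, which the methods trace to the Expression Console and the Transcriptome Analysis Console of Affymetrix. The versions of both, the background correction, the probe summary and the genome build were not given in the sources used here. Of 72688 entries, 65770 were transcript clusters and 5222 negative controls, and in 79.9% of clusters some arrays held equal values. No further normalization was applied.

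Groups and replicate numbers came from the labels. Two-sided tests in limma 3.58.1 (R 4.3.3) compared shSnail (sh1 and sh2, 4 arrays) with control (3 arrays), and, in a fit of 3 groups, each hairpin with control and sh2 with sh1. Benjamini-Hochberg adjustment was over all 65770 clusters, with a threshold of 0.05. The fits were tested on simulated data. All measured members are named, with listed pathway genes that passed. The members and lists were chosen with earlier results of these data known. Low signal means a group mean below the negative controls' 95th percentile. Alternatives were other normalizations, filters, fits, the replicate number as a block and leaving out each array. Promoters came from RefSeq (GRCm38.p6).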

Additional observations from a re-analysis of the deposited data

Results flagged for a closer look

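Srebf2 on sh2 replicate 1 had a log2 signal of 11.5516, and the next of the 4 shSnail arrays was at 11.3994. The gap was 0.87 of the whole range of the 4 arrays. Insig2 on sh2 replicate 2 had a log2 signal of 10.0414, while the other 3 shSnail arrays were equal at 10.0549, so the gap was the whole range, and it is small. With 4 arrays a group and no equal values, chance marks about 1 in 20 groups in this way, and 29 genes were looked at. Equal values were common here, in 79.9% of clusters, and both of these genes held some, so that rate may not hold.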

How the results depend on the processing

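No member passed as lower in any comparison of a hairpin group with control under any alternative. For shSnail against control, where 4 members passed as higher, the count was 8 with median centring. It stayed at 4 in a fit of 3 groups, with Hsd17b7 in place of Elovl6. With quantile normalization it was 3 (Acaca, Cyp51 and Sqle). It was 0 with the replicate number as a block and with the median of the negative controls as a covariate. Under the threshold of the methods (unadjusted p under 0.0005 and over 2-fold) 0 members passed as higher, against 19 of all clusters. In an analysis of variance after Benjamini-Hochberg adjustment 0 members passed as higher, against 34 of all clusters. With a p under 0.0005 from the analysis of variance and any fold, 3 passed as higher (Acaca, Me1 and Elovl6), as did 100 of all clusters. For sh1, where 2 passed, it was 4 with median centring and 0 with the block or the covariate. For sh2, where 4 passed, it was 7 with median centring, 2 with trend and robust eBayes, 1 with quantile normalization, 1 with array weights, and 0 with the block or the covariate. Leaving out 1 array gave 0 to 7 members for shSnail, 0 to 2 for sh1, 0 to 9 for sh2 (9 without sh2 replicate 2), 0 to 1 higher in sh2 than in sh1 (1 without sh2 replicate 2) and 0 to 2 lower (2 without sh2 replicate 1). The block used control replicates 1 and 2 only. Deviations of same-numbered arrays correlated at 0.16 between sh1 and sh2 and at -0.07 to -0.21 with control, so the numbers were not taken to pair the samples. Outside the analysis of variance, the share of all clusters that passed was not taken in these alternatives, so the counts cannot be set beside it. The causes of these changes were not tested.

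The differences that turned sign were those of Abca1, Scap, Acly, Lbr, Ebp, Insig2 and Mvk. Abca1 became -0.0336 in shSnail and -0.0159 in sh1 with the block, -0.0292 in shSnail with quantile normalization, and, in sh2, 0.00746 with median centring, 0.00539 with array weights and 0.715 with the covariate. Scap became -0.0395 in shSnail and -0.0349 in sh2 with quantile normalization, -0.00410 in shSnail with array weights, and -0.0259 in shSnail and -0.00359 in sh2 with the covariate. With quantile normalization Acly became -0.00595 in sh1 and Lbr -0.000346 in sh2. Ebp became 5.8e-06 in sh2 with median centring. With the covariate Mvk became -0.00695 in sh1 and -0.297 in sh2, and Insig2 0.0186 in sh2. Leaving out 1 array, Abca1 ran from -0.0336 to 0.0743 in shSnail, from -0.0159 to 0.0642 in sh1 and from -0.165 to 0.158 in sh2, Scap from -0.0088 to 0.011 in shSnail, and Ebp from -0.0369 to 0.0155 in sh2. Both group means lay above 7.97 in 20 of the 29 measured genes, and low signal limits what could be seen in the others.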
